A study of Mus musculus with 7 samples.

Results

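The genes described here are the transcription factors of the NF-kappaB family and a group of proteins that hold them back or adjust their action. They comprised 5 factors (Nfkb1, Nfkb2, Rel, Rela and Relb) and 5 genes of the inhibitor group (Nfkbia, Nfkbiz, Nfkbid, Tnfaip3 and Bcl3). They were chosen by symbol, and each symbol matched 1 of 55335 identifiers. The cells were ILC2s, innate lymphoid cells of type 2, which lack antigen receptors. They came from mouse hearts and were sorted for CD45 and the interleukin 33 receptor ST2 and against lineage markers. The naive group comprised 3 libraries of naive hearts, and the allograft group comprised 4 libraries of BALB/c hearts taken on day 7 after transplantation into C57BL/6 recipients, a model of acute rejection. The labels give 7 days for the naive libraries too, without saying what that time refers to. No transgene, knockout or drug was named for either group, and neither the strain of the naive hearts nor the sex of any animal was given in the labels. Each library pooled the cells of several hearts, so the spread between libraries is not the spread between single animals.

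NF-kappaB factors bind DNA as dimers. In resting cells most dimers are held in the cytoplasm by IkappaB proteins, of which the product of Nfkbia is the best known. Receptors such as ST2 activate a kinase that marks IkappaB for destruction, and the freed dimers then switch on many genes, among them Nfkbia and Tnfaip3, so that the response limits itself. A second, slower route processes the Nfkb2 product into a subunit that pairs with RelB. In ILC2s, interleukin 33 acts through ST2 on this pathway.

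Several of these genes carry matches to the DNA element bound by NF-kappaB near their own start sites, which is why short stretches are shown here. The sequences are those of RefSeq (GRCm38.p6, the same build as mm10), which held 12 start sites for 7 of the 10 genes. Each covers the bases around a start, mostly before it, and positions are counted from the start as 0. The degenerate kappaB consensus was searched on both strands, and capitals mark every base covered by a match. It was found in 8.46% of all 32851 promoter sequences and at 8 of the 12 start sites, in Nfkb2, Rel, Nfkbia, Nfkbid, Tnfaip3 and Bcl3. These 8 are not all separate, because the match of the third Nfkb2 start is also the one directly after its second start. A match describes letters and is no evidence of binding in these cells. The Nfkbia stretch is chr12:55492649-55492748 on the minus strand, with its match 29 to 20 bases before the start. The Rel stretch is chr11:23770971-23771070 on the minus strand. The Nfkb2 stretches are chr19:46304688-46304717 and chr19:46305695-46305724 on the plus strand, before the first and directly after the second listed start. For Tnfaip3 the stretch is chr10:19015403-19015432 (minus), for Nfkbid chr7:30422170-30422199 (plus) and for Bcl3 chr7:19822734-19822763 (minus).
Nfkbia: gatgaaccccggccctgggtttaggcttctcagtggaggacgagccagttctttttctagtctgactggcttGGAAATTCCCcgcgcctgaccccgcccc
Rel: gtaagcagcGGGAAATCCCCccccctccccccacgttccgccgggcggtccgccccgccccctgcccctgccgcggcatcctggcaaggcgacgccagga
Nfkb2, first start: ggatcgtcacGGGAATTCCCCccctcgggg
Nfkb2, second start: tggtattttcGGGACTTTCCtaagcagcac
Tnfaip3: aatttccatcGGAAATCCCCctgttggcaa
Nfkbid: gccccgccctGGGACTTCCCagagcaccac
Bcl3: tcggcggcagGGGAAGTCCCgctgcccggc

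On mm10 the genes lie at chr3:135584655-135691547 (Nfkb1), chr11:23736847-23770970 (Rel), chr19:5637483-5648130 (Rela), chr7:19606217-19629438 (Relb), chr12:55489410-55492647 (Nfkbia), chr16:55811375-55838899 (Nfkbiz), chr7:30421732-30428746 (Nfkbid), chr10:19000910-19015657 (Tnfaip3) and chr7:19808462-19822770 (Bcl3), and Nfkb2 lies at chr19:46304320-46312385. Rela and Nfkb2 share a chromosome, as do Relb, Nfkbid and Bcl3.

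Total counts ranged from 29107326 to 53044907 per library, and the lowest count of any of the 10 genes in any library was 426. Counting error of the reads was thus small beside the spread between libraries, although amplified reads are not independent molecules. The naive libraries stood apart from one another. The library labelled naive replicate 2 held 1145 CPM (counts scaled to the library total) of 10 summed ILC2 markers, against 10651 and 14579 in naive replicates 1 and 3 and 11003 to 11715 in the allografts, and its Il1rl1 (ST2) was at 6.79 CPM. It held 9908 CPM of 8 summed kidney genes, against 59.6 to 250.7 in the other 6 libraries, and 26.5% mitochondrial counts, against 2.04% to 3.11% elsewhere. Naive replicate 3 held 44218 CPM of 14 summed genes of the dissociation response, a set of early response genes that tissue digestion induces, against 11248 to 19313 in the other 6. The 3 naive libraries therefore do not form a uniform reference, and the fold changes of the 10 genes are given with and without naive replicate 2. In pooled cells, fewer cells of a type and less RNA per cell cannot be told apart.

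None of the 10 genes passed an adjusted p of 0.05 between allograft and naive libraries (edgeR's quasi-likelihood test), where 0.0353% of the 17015 tested genes did (0.0294% with a higher level in the allografts). At an unadjusted p under 0.05 there was 1 of the 10, Nfkb2, where 10.3% of all tested genes passed (6.41% in the higher direction). The fold change was positive for 7 of the 10, and for 49.4% of all tested genes. The count at the adjusted threshold was also 0 with DESeq2 among the 9 of the 10 genes it gave an adjusted p (none for Nfkbiz), where 6.66% of the 15197 genes with an adjusted p passed. It was 0 with limma on log2(FPKM + 1) and log2(FPKM + 0.1), where 0.447% and 1.18% did. It was 0 without naive replicate 2, where 3.1% of 18037 tested genes passed, without naive replicate 1 (0.568%) and without naive replicate 3 (0.0372%). In 7 of the 10 genes the 4 allografts lay inside the range of the naive libraries, a pattern of 43.1% of all tested genes. In 2 of the 10, Nfkb2 and Rela, every allograft lay above every naive library, a pattern of 12.5% of all tested genes. With TMM-scaled values the same 2 genes and the same 7 genes showed these patterns, against 10.5% and 44.6% of all tested genes. Without naive replicate 2, the allografts of Nfkb2 and Rela still lay above both remaining naive libraries, where 21.6% of tested genes did so, and for 5 of the 10 genes they lay between those libraries (24.9%).

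**Figure D1:**
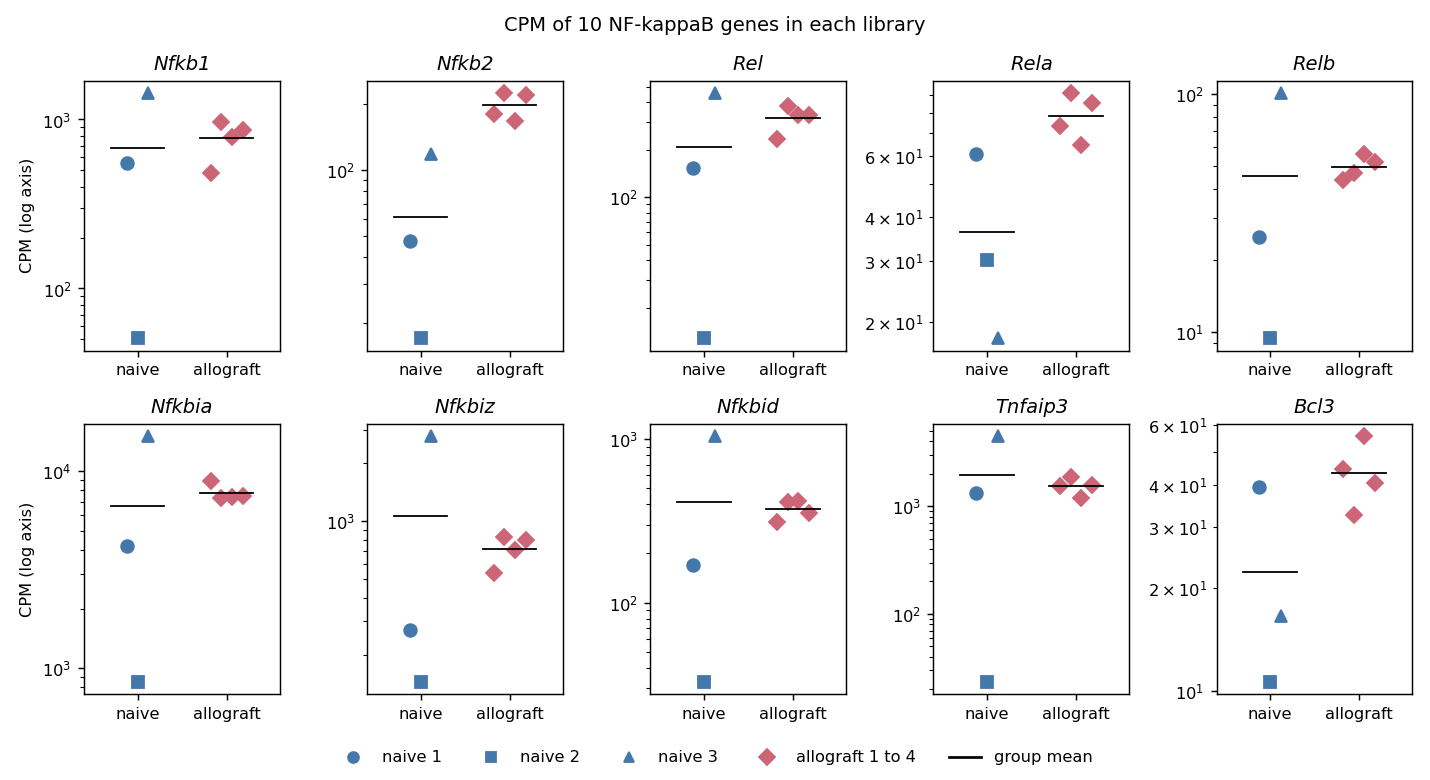
Level of each of the 10 genes in each library, as CPM of the library total on a log axis whose range differs between panels; blue symbols are naive libraries 1 to 3, red diamonds are the 4 allografts and black lines are group means. The allografts lie close together, naive replicate 2 is lowest for 9 genes and naive replicate 3 is highest for 7.

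Among the factors, Nfkb2, whose product is the precursor of the subunit of the slower route, lay higher in the allografts. It stood at 47.2, 17.0 and 119 CPM across the naive libraries and at 180.9, 224.8, 168.3 and 221.3 CPM across allograft replicates 1 to 4. All 4 allografts thus exceeded the highest naive library, naive replicate 3. The means were 61.1 ± 52.4 CPM (SD, n = 3) and 199 ± 28.5 CPM (SD, n = 4). The log2 fold change of Nfkb2 was 1.602 (SE 0.551, 95% interval 0.32 to 2.89, unadjusted p = 0.0210, adjusted p = 0.341, edgeR). Leaving out naive replicate 2 gave 1.20 (adjusted p = 0.196) and leaving out naive replicate 3 gave 2.47 (adjusted p = 0.123). Over 14 alternative fits it stayed between 1.20 and 2.47, with adjusted p between 0.116 and 1. The gene (ENSMUSG00000025225, chr19:46304320-46312385, plus strand) shares exonic bases with 2 genes on the opposite strand, Psd and the noncoding gene AC114539.1 (ENSMUSG00000118087). Psd had 16 to 461 counts, against 772 to 7965 for Nfkb2. AC114539.1 had 2651, 679 and 12845 counts across the naive libraries, beside 2504, 772 and 5187 for Nfkb2, and 2235 to 3744 counts across the allografts, beside 6441 to 7965. Whether the counting used strand was not given in the sources used here, and without strand, reads of the shared bases cannot be told apart.

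Rela, the main activating subunit of the fast route, stood at 60.8, 30.2 and 18.0 CPM across the naive libraries and at 73.1, 90.9, 64.4 and 85.4 CPM across the allografts. The lowest allograft (replicate 3) lay just above the highest naive library (replicate 1). Its log2 fold change was 0.92 (SE 0.434, 95% interval -0.09 to 1.94, adjusted p = 0.547), 0.96 when naive replicate 2 was left out and 0.58 when naive replicate 3 was. Rela was the one gene of the 10 whose lowest level was not in naive replicate 2 but in naive replicate 3.

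Nfkb1, which encodes the precursor of the usual partner of RelA, stood at 555, 50.6 and 1429 CPM across the naive libraries and at 479, 972, 789 and 871 CPM across the allografts. Naive replicates 2 and 3 lay on opposite sides of all 4 allografts, and naive replicate 1 lay among them. The log2 fold change was 0.14 (SE 0.828, 95% interval -1.79 to 2.07, adjusted p = 0.986), an interval that allows a change of several fold in either direction. It fell to -0.42 without naive replicate 2 and reached 1.31 without naive replicate 3.

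Rel, the c-Rel factor prominent in activated lymphocytes, stood at 152, 12.8 and 455 CPM across the naive libraries and at 234 to 376 CPM across the allografts. All 4 allografts lay between naive replicates 1 and 3. The log2 fold change was 0.57 (SE 0.859, adjusted p = 0.909), and 0.01 without naive replicate 2. Relb, the partner of the processed Nfkb2 product, stood at 25.1, 9.36 and 101 CPM across the naive libraries and at 43.7 to 56.0 CPM across the allografts. The fitted log2 change was 0.04 (SE 0.660, adjusted p = 0.996), and its sign was negative without naive replicate 2 (-0.42) and with DESeq2 size factors (-0.10).

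The make-up of the factor pool was compared within each library by FPKM, the authors' value per length of gene. Nfkb2 supplied 10.01%, 16.9% and 10.97% of the summed FPKM of the 5 factors in naive replicates 1 to 3 and 27.2%, 22.2%, 20.2% and 23.5% in the allografts, so that the groups did not overlap in this share. Nfkb1 supplied 27.3% to 36.4% in the allografts and 44.7%, 19.2% and 49.96% in the naive libraries. Rela supplied 11.5% to 16.3% in the allografts but 19.2%, 45.0% and 2.46% in the naive libraries, the widest range of the 5. The Relb to Nfkb2 ratio of FPKM was 0.243 to 0.391 in the allografts. It was 0.627, 0.652 and 0.999 in the naive libraries, again without overlap. No other ratio examined was without overlap. The Nfkb2 to Nfkb1 ratio was 0.562 to 0.996 in the allografts and 0.224, 0.881 and 0.220 in the naive libraries. These shares and ratios use the same Nfkb2 values as above and are given as a description. When each gene was instead set against 1000 CPM of summed ILC2 markers, Nfkb2 stood at 4.43, 14.8 and 8.16 in the naive libraries and 14.5 to 20.1 in the allografts, so that naive replicate 2 reached the lowest allograft. Rela stood at 5.71, 26.4 and 1.23 on this scale in the naive libraries and 5.57 to 7.97 in the allografts, so that it too no longer separated the groups.

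**Figure D2:**
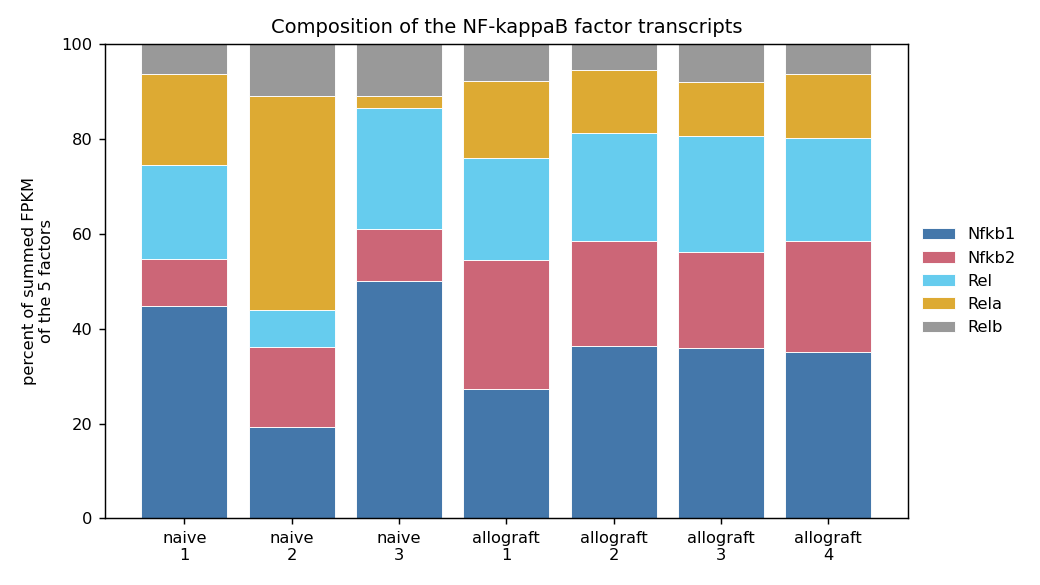
Share of each of the 5 factors in their summed FPKM, 1 stacked bar per library adding to 100 percent. The Nfkb2 segment takes 20.2% to 27.2% in the allografts and 10.01% to 16.9% in the naive libraries, while the Rela segment runs from 2.46% to 45.0% among the naive libraries.

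Set in order of FPKM in the allografts (mean ± SD, n = 4), Nfkbia stood first at 4176 ± 385, followed by Tnfaip3 at 185 ± 32.9, Nfkbid at 138 ± 19.6 and Nfkbiz at 124 ± 22.7. Nfkb1 was the leading factor at 55.9 ± 15.4, ahead of Nfkb2 at 37.6 ± 5.42, Rel at 36.9 ± 7.06 and Rela at 22.1 ± 3.39. Bcl3 at 15.1 ± 3.33 and Relb at 11.01 ± 1.26 came last. Nfkbid and Nfkbiz differed by less than their SD, as did Nfkb2 and Rel. In the naive libraries this order did not hold throughout: Rela exceeded Nfkb1 in naive replicate 2, at 9.02 against 3.85 FPKM.

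In the inhibitor group, Nfkbia was by far the most abundant. It encodes IkappaB-alpha, the inhibitor that is destroyed and resynthesised within a signalling cycle. Its FPKM ranked first of the 10 genes in all 7 libraries and ranked 5 to 7 among all identifiers in the allografts, and 15, 89 and 3 in naive replicates 1 to 3. Nfkbia stood at 4150, 852 and 15046 CPM across the naive libraries and at 8883, 7288, 7377 and 7510 CPM across the allografts. The allografts differed from one another by at most 1.22-fold, whereas the naive libraries differed by up to 17.7-fold and lay on both sides. The log2 fold change was 0.14 (SE 0.827, 95% interval -1.79 to 2.07, adjusted p = 0.985), and it was -0.37 when naive replicate 2 was left out and 1.53 when naive replicate 3 was.

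Tnfaip3 encodes A20, a ubiquitin-editing enzyme that shuts the pathway off above the kinase. It stood at 1337, 23.5 and 4435 CPM across the naive libraries and at 1541, 1874, 1200 and 1575 CPM across the allografts. This was the widest naive range of the 10 genes, 189-fold, against 1.56-fold among the allografts. The log2 fold change of Tnfaip3 was -0.37 (SE 1.13, 95% interval -3.01 to 2.27, adjusted p = 0.966), -0.96 when naive replicate 2 was left out and 1.18 when naive replicate 3 was.

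Nfkbiz and Nfkbid encode nuclear IkappaB proteins that adjust which targets the DNA-bound dimers switch on. Nfkbiz stood at 272, 146 and 2766 CPM across the naive libraries and at 538, 826, 706 and 795 CPM across the allografts. Naive replicates 1 and 2 were below every allograft and naive replicate 3 was 3.86 times the allograft mean, the largest such excess among the 10 genes. Its log2 fold change was -0.65 (SE 0.882, adjusted p = 0.889), -1.16 when naive replicate 2 was left out and 1.56 when naive replicate 3 was. Nfkbid stood at 169, 32.9 and 1039 CPM across the naive libraries and at 310 to 417 CPM across the allografts, again with naive replicates 1 and 2 below and naive replicate 3 above every allograft. Its log2 fold change was -0.22 (SE 0.886, adjusted p = 0.976), or -0.76 with naive replicate 2 left out and 1.79 with naive replicate 3 left out.

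Bcl3, a nuclear IkappaB protein that binds dimers of the Nfkb1 and Nfkb2 products, had the lowest FPKM of the inhibitor group in the allografts. It stood at 39.3, 10.6 and 16.5 CPM across the naive libraries and at 44.4, 32.7, 55.4 and 40.5 CPM across the allografts. Among the allografts only replicate 2 lay below naive replicate 1. Counts of the antisense gene Gm16175, which overlaps Bcl3, were between 0 and 7. The log2 fold change of Bcl3 was 0.85 (SE 0.454, 95% interval -0.21 to 1.91, adjusted p = 0.624), 0.60 when naive replicate 2 was left out and 0.66 when naive replicate 3 was.

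**Figure D3:**
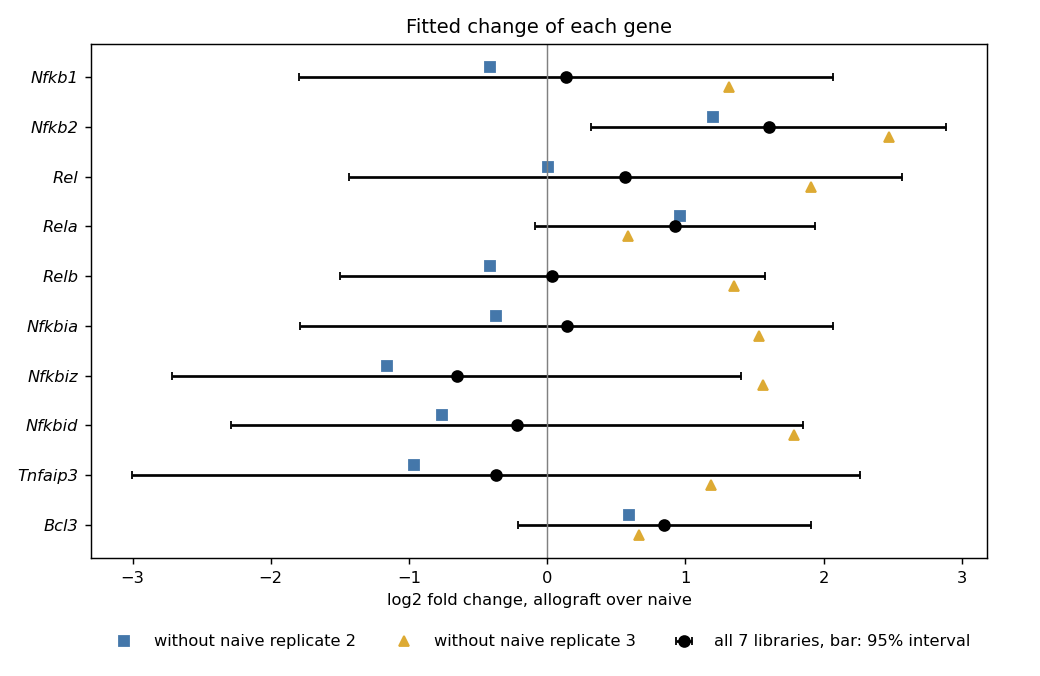
Log2 fold change of each gene, allograft over naive, from the edgeR fit over all 7 libraries (black, bar: 95% interval) and from the fits without naive replicate 2 (blue squares) or without naive replicate 3 (yellow triangles). Nfkb2 alone has an interval above 0, and the position of 8 genes shifts by more than 1 between the fits that leave out naive replicate 2 or naive replicate 3.

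The direction of most of the 10 genes turned on which naive library was kept. Naive replicate 3 was the highest of the 7 libraries for 7 genes, where 21.5% of all tested genes were highest there, and naive replicate 2 was the lowest for 9 genes, where 31.3% were lowest there. The libraries were singled out after their values were seen. The median log2 fold change of the 10 genes was 0.14, beside -0.01 over all tested genes. It was -0.39 without naive replicate 2 (0.23 over all tested genes) and 1.44 without naive replicate 3 (0.05 over all). Without naive replicate 3, 5 of the 10 genes had an unadjusted p under 0.05 in edgeR, all 5 higher in the allografts. Of 18834 tested genes, 16.7% did (9.32% in the higher direction), and 0 of the 10 had an adjusted p under 0.05. That fit kept naive replicates 1 and 2 as its reference, and replicate 2 held only 1145 CPM of the ILC2 markers. Naive replicate 3 exceeded naive replicate 1 by 2.57-fold for Nfkb1, 3.62-fold for Nfkbia, 6.13-fold for Nfkbid and 10.2-fold for Nfkbiz, while Rela and Bcl3 stood at 0.295 and 0.419 times their level in naive replicate 1. Of the 14 early response genes of the dissociation list, none of which is among the 10, 11 were also highest in naive replicate 3, while Egr1 and Atf3 were highest in naive replicate 2 and Hspa1a in allograft replicate 1. As examples of the 11, Fos stood at 8410 CPM in naive replicate 3 against 1917 to 3216 CPM in the other 6 libraries, and Dusp1 at 6289 against 1031 to 2331. The part of the dissociation response in the levels of Nfkbia, Nfkbiz, Nfkbid and Tnfaip3 was not tested.

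The patterns of the 10 genes over the 7 libraries were then compared. Likeness was measured as the root mean square difference of TMM-scaled log2 CPM (prior count 2) after each gene was centred on its own mean. It is a description over 7 libraries, and the differences between the naive libraries enter every distance. Nfkb1 and Rel were each other's nearest at 0.317, and 0.153% of all tested genes lay nearer to Nfkb1. Nfkbia and Nfkbid followed at 0.328, and Relb lay 0.330 from Nfkbia. Rela and Bcl3 were each other's nearest at 0.515 and were far from the rest, with Tnfaip3 the farthest from both (2.23 and 1.90). Of all tested genes, 4.52% lay nearer to Rela than Bcl3 did, and 7.23% lay nearer to Bcl3 than Rela did. For Nfkb2 the nearest of the 10 was Nfkbia at 0.667, and 3.17% of all tested genes lay nearer. The nearest of 4938 well-expressed genes to Nfkb2 were Dnaaf2 (0.168), Larp1 (0.220) and Arid4a (0.222), none of which passed the adjusted threshold.

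The wider pathway was followed with 4 lists of 75 genes, of which 74 were tested and 0 passed an adjusted p of 0.05 (edgeR). The lists were chosen with earlier results of these data known. Their shares beside those of all tested genes are thus a description and no test of the pathway. At an unadjusted p under 0.05, 5 of the 74 were higher in allografts (6.41% of all tested genes) and 2 were lower (3.86% of all). Every allograft exceeded every naive library for 17 of the 74 (23.0%, where 12.5% of all tested genes did), and 0 lay below every naive library (2.15% of all). DESeq2 called 6 of the 63 genes it gave an adjusted p (9.52%, where 6.66% of all genes were called), and limma called 2 of the 74 under either pseudocount (2.7%, where 0.447% and 1.18% were).

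Of 14 receptors upstream of the pathway, 9 had a positive fold change (49.4% of all tested genes did), with a median of 0.57. The 2 smallest p belonged to costimulatory members of the tumour necrosis factor receptor family. Tnfrsf9 (4-1BB) stood at 1.75, 0.242 and 2.43 CPM across the naive libraries and at 12.7 to 22.8 CPM across the allografts (fitted log2 change 3.36, SE 0.903, adjusted p = 0.230). Tnfrsf4 (OX40) had 1.87, 0 and 16.3 CPM and 60.9 to 102 CPM (3.75, SE 1.63, adjusted p = 0.498). Il18r1, a subunit of the interleukin 18 receptor, had 5.96 to 8.37 CPM and 11.9 to 24.3 CPM (1.18, SE 0.557, adjusted p = 0.547). Without naive replicate 2, Tnfrsf1a and Cd40 passed (adjusted p = 0.0433 and 0.0450). Both had 0 counts in naive replicates 1 and 3, and 1.91 to 3.68 CPM and 1.22 to 2.10 CPM in the allografts, but 30.05 and 2.66 CPM in naive replicate 2.

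Among 26 signal transducers, 18 had a positive fold change (median 0.20), where 49.4% of all tested genes did. All allografts lay inside the naive range for 14 of the 26, and for 43.1% of all tested genes. Traf1, an adaptor and itself a known target of the pathway, stood at 182, 12.9 and 425 CPM across the naive libraries and at 686 to 781 CPM across the allografts (1.80, SE 0.867, adjusted p = 0.564), without overlap. Traf2 had 12.6 to 50.7 CPM and 36.8 to 60.9 CPM (0.87, SE 0.499, adjusted p = 0.662). Chuk, a catalytic subunit of the IkappaB kinase, had 64.5 to 154 CPM and 63.3 to 84.9 CPM (-0.74, SE 0.373, adjusted p = 0.592). Myd88, the adaptor of ST2, had 0 counts in naive replicate 3, which allows up to 0.0688 CPM, beside 49.1 and 47.5 CPM in naive replicates 1 and 2 and 27.9 to 54.1 CPM in the allografts. Myd88 was singled out after its values were seen. Without naive replicate 2, Traf5 passed (adjusted p = 0.0433), with 0 counts in naive replicates 1 and 3, 4.70 CPM in naive replicate 2 and 1.91 to 7.41 CPM in the allografts.

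Of 12 other inhibitors, 10 had a positive fold change (median 0.61), where 49.4% of all tested genes did. In 6 of the 12 every allograft exceeded every naive library, where 12.5% of all tested genes showed this. Without naive replicate 2 the share of all tested genes was 21.6%, and the lists were not counted that way. Nfkbib, which encodes IkappaB-beta, stood at 125, 40.1 and 69.1 CPM across the naive libraries and at 255, 188, 196 and 158 CPM across the allografts. All 4 allografts lay above the highest naive library, and the fitted log2 change was 1.23 (SE 0.365, adjusted p = 0.294), or 1.00 without naive replicate 2 (adjusted p = 0.171). Nfkbil1 (0.918 to 1.54 CPM and 1.82 to 5.71 CPM) and Itch, a ubiquitin ligase (1.06 to 19.8 CPM and 29.6 to 41.5 CPM), were also above every naive library, with adjusted p of 0.699 and 0.709.

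Of the 22 tested target genes, 14 had a positive fold change (median 0.39), where 49.4% of all tested genes did. All allografts lay inside the naive range for 12 of the 22, and for 43.1% of all tested genes. The maturation marker gene Cd83 stood at 42.0, 58.5 and 23.2 CPM across the naive libraries and at 531, 385, 383 and 369 CPM across the allografts. On the log2 scale the change was 3.03 (SE 0.514, adjusted p = 0.144), and 3.64 without naive replicate 2 (adjusted p = 0.0234). The chemokine receptor gene Ccr7 had 5.37 to 29.2 CPM and 198 to 269 CPM (3.62, SE 0.625, adjusted p = 0.144). Icam1, an adhesion molecule, had 28.8 to 51.3 CPM and 141 to 163 CPM (1.51, SE 0.385, adjusted p = 0.196), and it passed without naive replicate 2 (1.87, adjusted p = 0.0437). Irf1 had a negative change (-1.38, SE 0.402, adjusted p = 0.277) and passed without naive replicate 2 (-1.71, adjusted p = 0.0437). Its level went from 150 and 142 CPM in naive replicates 1 and 3 to 31.0 to 58.1 CPM in the allografts, but naive replicate 2, at 42.0 CPM, lay among the allografts. Ccl20 was the 1 target not tested.

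**Figure D4:**
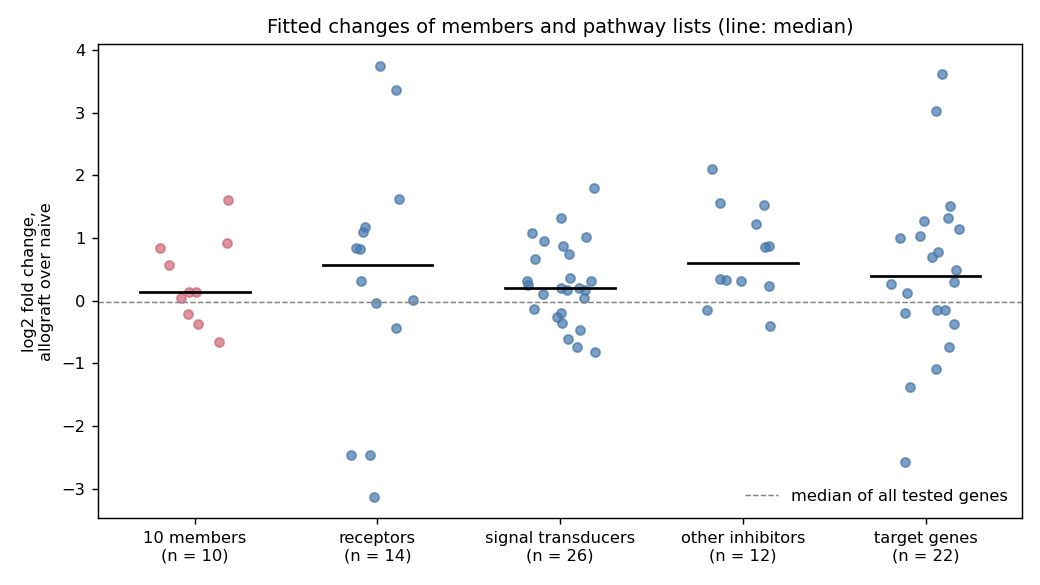
Log2 fold change, allograft over naive, of the 10 genes and of the tested genes of the 4 pathway lists; each point is a gene, black lines are medians and the dashed line is the median of all tested genes. The medians lie between 0.14 and 0.61, and the points of each group spread on both sides of 0.

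Markers of other cells moved with part of these values. Summed dendritic cell markers were 12.7, 11.2 and 31.8 CPM in the naive libraries and 78.2 to 99.1 CPM in the allografts, above every naive library in total and for 4 of the 6 genes, and 5 of the 6 were at 0 counts in naive replicate 1. Dendritic cells also express Nfkb2, Relb, Cd83, Ccr7 and Icam1 when they mature, and the part of such cells in the values of these genes was not tested. Summed T cell markers, which the lineage gate is meant to remove, were 348, 30.4 and 1085 CPM in the naive libraries and 1064 to 1260 CPM in the allografts. B cell markers were 117, 5.56 and 0 CPM and 88.5 to 144 CPM, and myeloid markers were 2.49, 263 and 453 CPM and 196 to 316 CPM. Endothelial markers were at 6.97 to 167 CPM and 34.7 to 44.4 CPM, fibroblast markers at 0.0566 to 134 CPM and 15.1 to 64.4 CPM, cardiomyocyte markers at 0 to 0.637 CPM and 0.416 to 3.98 CPM, and erythroid markers at 776 to 2937 CPM and 468 to 595 CPM. The part of these lists in the levels of the 10 genes was not tested.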

How the data were processed

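The 7 libraries were grouped by their titles (3 naive, 4 allograft). The authors deposited raw counts per gene and FPKM (fragments scaled to gene length and library size), 1 column per library, and 0 columns were left unmapped. Per the submitters' processing notes, FastQC 0.11.5, STAR 2.5.3a, StringTie 1.3.1c, DESeq2 1.16.1 and the build mm10 were used, with no role given. Per the labels' protocols, full-length cDNA was amplified before library construction, without molecular identifiers, so reads are not independent molecules and floors cover counting error only. The annotation and use of strand are not given in the sources used here.

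Counts were tested with edgeR 4.0.16 (R 4.3.3): TMM, filterByExpr, quasi-likelihood fit over all 7 libraries without covariate, Benjamini-Hochberg adjustment over 17015 genes at 0.05. The standard error was derived from the F value. A count of 0 was taken to allow up to 3 counts. The 14 alternatives were DESeq2 size factors, DESeq2 1.42.0, testing without the filter, testing genes with 50 or more counts on average, a replicate block, limma 3.58.1 on log2 of FPKM plus 1 or plus 0.1, and leaving out each library. The edgeR and limma fits were also run on simulated counts, drawn with a common spread estimated from the allografts. Such counts lack the uneven naive libraries, so they do not show how the fits behave with them. The 10 genes and all lists were chosen with earlier results of these data known. Named were all 10 genes, the 3 smallest p in each list, and any gene past the threshold. Where nothing says that libraries came from separate preparations, p-values measure only the spread between them. Positions are those of GENCODE M21 (mm10).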

Additional observations from a re-analysis of the deposited data

Results flagged for a closer look

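Of 43 quantities, 5 had 1 of the 4 allografts far outside the span of the rest. About 1 in 20, or 2.15, would by chance if the quantities were independent and normally spread. Several of them share values, so that figure is only a rough guide. Allograft replicate 1 had the highest Nfkbia, at 8883 CPM against 7288 to 7510 CPM in the other allografts. In the same library Nfkb1 made up 27.3% of the summed FPKM of the 5 factors, against 35.01% to 36.4% in the others. Cd83 was also highest there, at 531 CPM against 369 to 385 CPM, and so was the sum of myeloid markers, at 316 CPM against 196 to 206 CPM. Allograft replicate 4 had the lowest Traf2, at 36.8 CPM against 58.8 to 60.9 CPM.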

How the results depend on the processing

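The count of the 10 genes past the threshold was 0 under all 14 alternatives, although DESeq2 gave Nfkbiz no adjusted p and so tested 9. Between 0 (replicate block) and 5 (without naive replicate 3) of them had an unadjusted p below 0.05, where 1.48% and 16.7% of all genes did and the share over the alternatives ran from 1.48% to 20.2%. The fold changes of Nfkb2, Rela, Rel and Bcl3 kept their sign in all 14. The count over all genes (6) was 1012 with DESeq2, 76 and 201 with limma on log2(FPKM + 1) and log2(FPKM + 0.1), and 0 to 560 when single libraries were dropped. Pathway list genes past the threshold (0) numbered 6 with DESeq2, 2 with either limma fit, and 0 to 6 across the fits without 1 library (1 without naive replicate 1, 6 without naive replicate 2). Relb stood at -0.10 with DESeq2 size factors and with DESeq2. With limma, Tnfaip3 stood at 1.38 and 1.501, Nfkbiz at 0.50 and 0.52, and Nfkbid at 0.97 and 1.00. Leaving out 1 library gave ranges of -0.42 to 1.31 for Nfkb1, -0.37 to 1.53 for Nfkbia, -0.42 to 1.35 for Relb, -0.96 to 1.18 for Tnfaip3, -1.16 to 1.56 for Nfkbiz and -0.76 to 1.79 for Nfkbid. DESeq2 size factors moved the median of all genes from -0.01 to -0.20. With the replicate number as a block, 0 genes passed in all, and Tnfaip3 stood at 0.80, Nfkbiz at 0.40 and Nfkbid at 0.86. The departures of each gene from its group mean were correlated across genes between naive and allograft libraries. Same-numbered libraries had correlations of 0.017, -0.020 and 0.036, beside -0.087 to 0.076 for the other pairs. They do not describe the likeness of the levels themselves. With so few pairs and such uneven naive libraries, these values cannot show whether the numbers pair libraries. The cause of these shifts was not tested. The lowest count of the 10 genes was 426, in reads that are not independent molecules. Genes detected numbered 15820, 20254 and 13864 in naive replicates 1 to 3, and 19235 to 21354 in the allografts. The part of this difference in the counts of 0 was not tested.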
